A study of Saccharomyces cerevisiae with 12 samples.

Results

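The channels and partners that carry proteins into the endoplasmic reticulum (ER) of the yeast Saccharomyces cerevisiae are described here through 9 genes, out of 5449 yeast genes measured on 12 arrays. They encode the Sec61 complex (SEC61, SSS1, SBH1), its relative the Ssh1 complex (SSH1, SBH2, which also contains Sss1) and the Sec63 complex (SEC62, SEC63, SEC66, SEC72). The genes were chosen by name, and the probe set with the highest mean was to be used for each; all 9 were found, each had a single probe set, and all lay above background on every array.

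The 4 strains were hac1∆(hsf1), hac1∆, WT(hsf1) and WT, with 3 biological replicates of each. The labels give no strain background, and do not say what "(hsf1)" stands for, so it is used only as part of a strain's name. All cultures grew at early exponential phase in synthetic medium without uracil and received 2.5 mM dithiothreitol (DTT) for 2 h. DTT reduces disulfide bonds and so hinders folding in the ER; as every culture received it, its own effect was not analysed here.

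Secretory and membrane proteins cross or enter the ER membrane through a channel formed by Sec61, or by its paralog Ssh1, with small subunits of the Sss1 and Sbh families. Proteins made by a ribosome docked on the channel enter during synthesis, after delivery by the signal recognition particle (SRP). Proteins released into the cytosol first need the Sec63 complex, and inside the ER the Hsp70 Kar2 binds the incoming chain with help from a J domain of Sec63. The transcription factor Hac1 drives the unfolded protein response of the ER, and Hsf1 drives the cytosolic heat shock response.

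Values are the authors' deposited signals per probe set, read as log2 from their range because the log base is not stated. A gene is called higher or lower where its limma p-value was under 0.05 after Benjamini-Hochberg adjustment across the 5449 genes. Changes are log2 fold changes ± standard error (SE) from 3 arrays per strain, with a variance pooled over all 12 arrays. The arrays measure the RNA of whole cultures, so fewer cells expressing a gene and less RNA per cell cannot be told apart.

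The HAC1 signal (YFL031W) was 5.25, 5.31 and 5.21 in hac1∆(hsf1) and 5.23, 5.24 and 5.23 in hac1∆, against 10.86, 10.82 and 10.71 in WT(hsf1) and 10.80, 10.37 and 10.58 in WT. It was thus below the background of 5.49 on all arrays of strains labelled hac1∆. HSF1 (YGL073W) stood at 10.54, 10.81 and 10.66 in hac1∆(hsf1), 7.75, 7.86 and 7.87 in hac1∆, 8.63, 8.51 and 8.41 in WT(hsf1) and 8.08, 9.61 and 8.11 in WT. HSF1 rose in hac1∆(hsf1) relative to hac1∆ (2.84 ± 0.30, limma adjusted p = 5.63e-06), and was not called in WT(hsf1) minus WT (−0.08), where it was called higher without WT replicate 2 (0.43). URA3 (YEL021W), also read as a check of the strains, averaged 9.60 in hac1∆(hsf1), 12.13 in hac1∆, 10.91 in WT(hsf1) and 11.79 in WT. URA3 was called in every comparison, and in hac1∆(hsf1) minus hac1∆ no gene had a lower value (−2.53 ± 0.07, limma adjusted p = 2.22e-10). The part of URA3 in the results was not tested. WT replicate 2 stood apart from the other WT arrays. Its correlations across genes with the hac1∆(hsf1) arrays were 0.973 to 0.978, against 0.939 to 0.951 for WT replicates 1 and 3. Of the 9 genes 7 were lowest on WT replicate 2 among the WT arrays, 1 was highest and 1 lay between, so many results that rest on it are also given without it. Its part in the results was otherwise not tested.

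**Figure D1:**
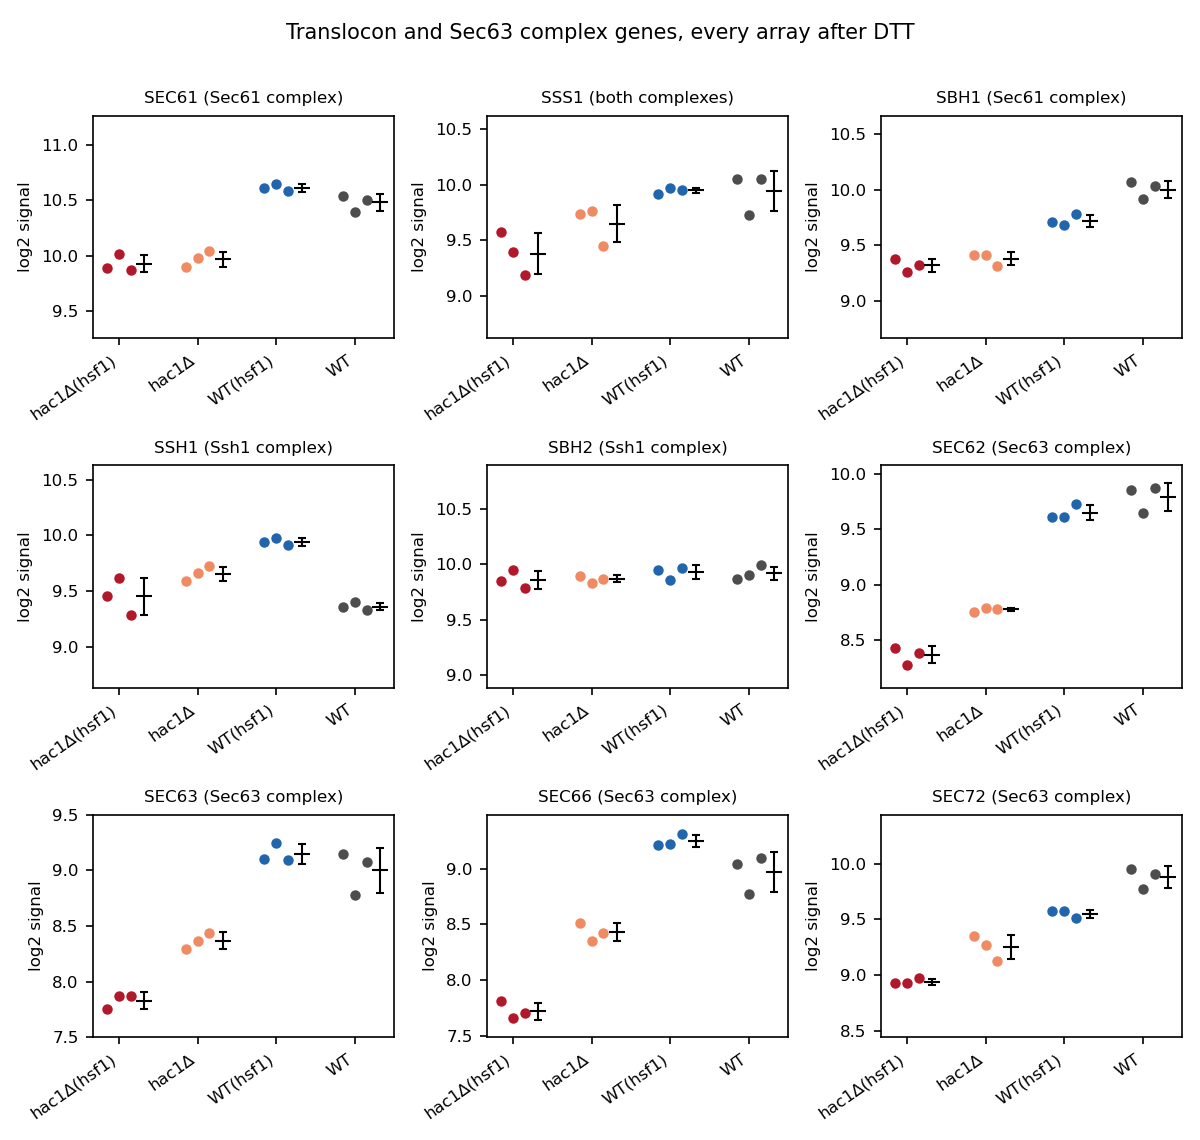
Log2 signal (vertical axis) of the 9 genes on every array, by strain (horizontal axis); points are arrays and the bar is the mean ± SD (n = 3). Each panel spans the same range of the log2 scale; SEC62, SEC63, SEC66 and SEC72 lie lowest in hac1∆(hsf1) and next lowest in hac1∆, while SBH2 overlaps between all strains.

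The comparison of hac1∆ with WT asks how these genes differ in DTT-treated cells that lack HAC1. HSF1 was also called lower there (−0.77 ± 0.30, limma adjusted p = 0.0464), a call that changed under 10 of 19 other settings. URA3 was called higher (0.34 ± 0.07, adjusted p = 0.00116). The part of HSF1 and URA3 in the values below was not tested. Of the 9 genes 7 fell, 1 rose and 1 was not called. Over all genes 22.3% were called lower and 28.4% higher, and the median change was 0.03, against −0.54 for the 9 genes. Without WT replicate 2 the counts were again 7 lower and 1 higher.

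The Sec63 complex fell as a whole. SEC62 (YPL094C), which encodes a membrane subunit needed for entry of finished proteins, had signals of 8.76, 8.79 and 8.78 in hac1∆, against 9.85, 9.65 and 9.87 in WT. The strains were far apart, and SEC62 fell 2.02-fold, a change of −1.02 ± 0.06 (limma adjusted p = 1.67e-07). Only 85 of the 5449 genes had a lower value in this comparison.

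SEC63 (YOR254C), the J-domain subunit that brings Kar2 to the channel, had signals of 8.29, 8.37 and 8.44 in hac1∆, against 9.15, 8.78 and 9.08 in WT. No hac1∆ array reached the lowest WT array, and SEC63 fell 1.55-fold (−0.64 ± 0.09, limma adjusted p = 8.51e-05). SEC66 (YBR171W), also named SEC71, encodes a membrane protein that anchors Sec72; its signals were 8.51, 8.35 and 8.42 in hac1∆, against 9.04, 8.77 and 9.10 in WT. Again the arrays did not overlap, and the change was −0.54 ± 0.08 (adjusted p = 0.000138). SEC72 (YLR292C), the cytosolic partner of Sec66, had 9.35, 9.27 and 9.13 in hac1∆, against 9.95, 9.77 and 9.91 in WT. It changed by −0.62 ± 0.06 (adjusted p = 6.21e-06), so the 3 subunits other than SEC62 fell by similar amounts. Without WT replicate 2 the falls of the complex ran from −0.64 for SEC66 to −1.09 for SEC62.

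All 3 genes of the Sec61 complex also fell, by less than SEC62. SEC61 (YLR378C), the channel itself, had signals of 9.90, 9.98 and 10.04 in hac1∆, against 10.54, 10.39 and 10.50 in WT. The arrays did not overlap, and SEC61 fell 1.42-fold (−0.50 ± 0.06, limma adjusted p = 1.84e-05). SBH1 (YER087C-B), the non-essential beta subunit, had 9.41, 9.41 and 9.31 in hac1∆, against 10.07, 9.92 and 10.03 in WT, a fall of 1.54-fold (−0.63 ± 0.05, adjusted p = 1.8e-06).

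SSS1 (YDR086C), the gamma subunit shared by both channels, was the least certain of the fallers. Its signals were 9.74, 9.76 and 9.45 in hac1∆, against 10.05, 9.73 and 10.05 in WT. The arrays overlapped through WT replicate 2, and the change was −0.29 ± 0.11 (limma adjusted p = 0.0382). It was −0.40 without WT replicate 2. The call ended without WT replicate 1 or 3 (both −0.24), without hac1∆ replicate 3 (−0.20), without any 1 array of WT(hsf1) (−0.29), after quantile normalization (−0.26), and when only hac1∆ and WT entered the model (−0.29).

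The 2 genes that belong to the Ssh1 complex alone did not follow. SSH1 (YBR283C), the paralog of SEC61, had signals of 9.59, 9.66 and 9.72 in hac1∆, against 9.36, 9.40 and 9.33 in WT. All hac1∆ arrays lay above all WT arrays, and SSH1 rose 1.22-fold (0.29 ± 0.07, limma adjusted p = 0.00447). SBH2 (YER019C-A), the paralog of SBH1, had 9.89, 9.83 and 9.87 in hac1∆, against 9.87, 9.90 and 9.99 in WT. The arrays overlapped, and SBH2 was not called (−0.06 ± 0.05, adjusted p = 0.405), with a 95% interval of −0.17 to 0.06.

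WT(hsf1) was then set against WT, in cells that have HAC1. The 9 genes did not move together: 3 rose, 2 fell and 4 were not called, with a median of 0.01. Over all genes 32.3% were called higher and 33.8% lower. Without WT replicate 2 the counts were 2 higher and 3 lower.

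SSH1 had the largest change, with 9.94, 9.98 and 9.91 in WT(hsf1), against 9.36, 9.40 and 9.33 in WT. The arrays were well apart, and SSH1 rose (0.58 ± 0.07, limma adjusted p = 1.07e-05). SEC66 also rose, with 9.21, 9.22 and 9.31 in WT(hsf1), against 9.04, 8.77 and 9.10 in WT (0.28 ± 0.08, adjusted p = 0.00728), and its change was 0.18 without WT replicate 2, where it was still called (adjusted p = 0.0216). SEC61 was called by a narrow margin, at 0.14 ± 0.06 (adjusted p = 0.0495). Its signals of 10.61, 10.65 and 10.58 in WT(hsf1) stood against 10.54, 10.39 and 10.50 in WT, and the call ended under 16 of 19 other settings, among them without WT replicate 2, at 0.09 (adjusted p = 0.179).

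SEC72 and SBH1 were the genes called lower in this comparison. SEC72 fell by 0.32 on the log2 scale (−0.32 ± 0.06, limma adjusted p = 0.000489), with 9.58, 9.58 and 9.51 in WT(hsf1), against 9.95, 9.77 and 9.91 in WT. SBH1 had 9.71, 9.68 and 9.78 in WT(hsf1), against 10.07, 9.92 and 10.03 in WT, without overlap (−0.28 ± 0.05, adjusted p = 0.000441). SEC62 was not called, at −0.14 ± 0.06 (adjusted p = 0.0628), and was called under 4 of 19 other settings, among them without WT replicate 2, at −0.22 (adjusted p = 0.00449). SEC63 (0.14 ± 0.09), SSS1 (0.00 ± 0.11) and SBH2 (0.01 ± 0.05) were not called.

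**Figure D2:**
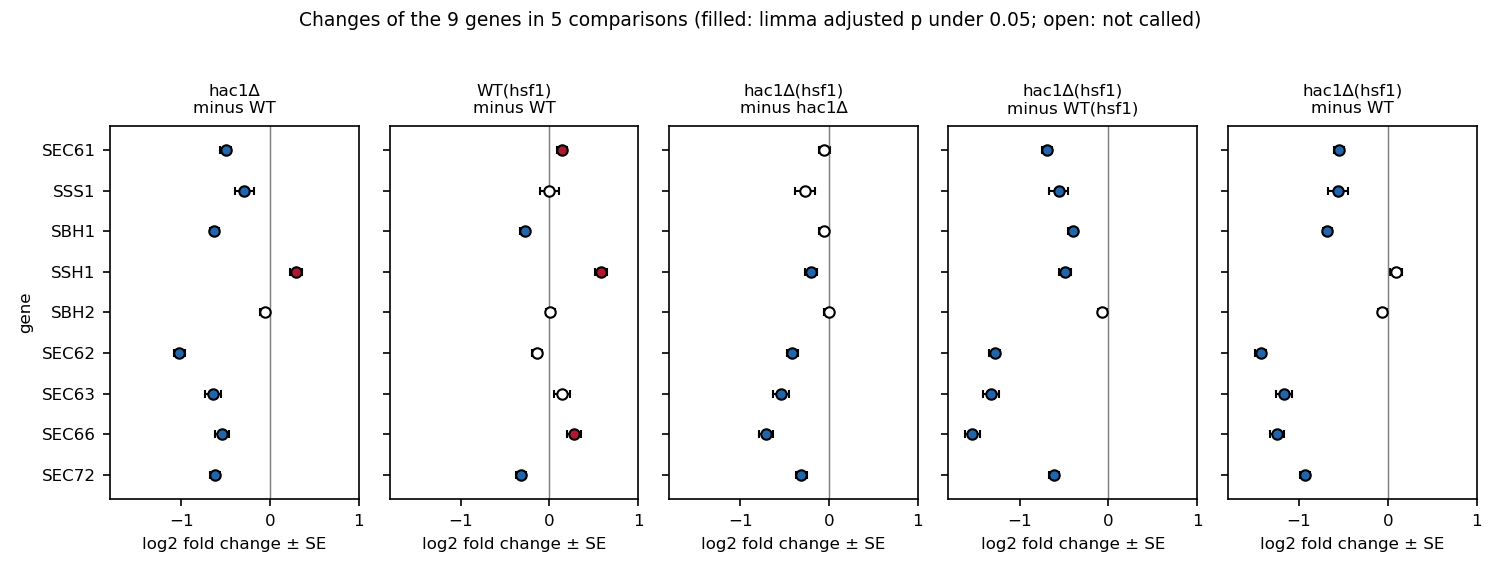
Log2 fold change ± SE (horizontal axis) of the 9 genes (vertical axis) in 5 comparisons; blue points were called lower, red points higher and open points were not called (limma adjusted p, 3 arrays per strain). The 4 Sec63 complex genes were called lower in all 3 comparisons that have hac1∆(hsf1) on top and in hac1∆ minus WT; SBH2 was called in none.

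The comparison of hac1∆(hsf1) with hac1∆ asks how the strain named with hsf1 differed where HAC1 was missing. None of the 9 genes rose and 5 fell, the entire Sec63 complex and SSH1. Over all genes 26.5% were called higher and 30.7% lower, with a median of −0.01, against −0.27 for the 9 genes. KAR2 (YJL034W), whose product binds proteins as they arrive in the ER, rose 2.06-fold in the same comparison (1.04 ± 0.06, limma adjusted p = 1.06e-07).

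SEC66 had the largest fall, with 7.81, 7.66 and 7.70 in hac1∆(hsf1), against 8.51, 8.35 and 8.42 in hac1∆. The arrays did not overlap, and SEC66 fell 1.63-fold (−0.71 ± 0.08, limma adjusted p = 9.77e-06). SEC63 had 7.75, 7.87 and 7.87 in hac1∆(hsf1), against 8.29, 8.37 and 8.44 in hac1∆, a fall of 1.45-fold (−0.54 ± 0.09, adjusted p = 0.000195). SEC62 had 8.43, 8.28 and 8.39 in hac1∆(hsf1), against 8.76, 8.79 and 8.78 in hac1∆ (−0.41 ± 0.06, adjusted p = 0.000141).

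SEC72 completed the complex, with 8.93, 8.93 and 8.97 in hac1∆(hsf1), against 9.35, 9.27 and 9.13 in hac1∆ (−0.31 ± 0.06, limma adjusted p = 0.000909). SEC66 thus had the largest of the 4 falls here, and SEC62 the largest in hac1∆ minus WT, where the other subunits fell by similar amounts. These 2 comparisons share the hac1∆ arrays.

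Of the channel genes SEC61, SBH1 and SBH2 were not called and had small changes. SEC61 had 9.89, 10.02 and 9.87 in hac1∆(hsf1), against 9.90, 9.98 and 10.04 in hac1∆, overlapping ranges (−0.05 ± 0.06, 95% interval −0.17 to 0.08, limma adjusted p = 0.499). SBH1 was at −0.06 ± 0.05 (adjusted p = 0.379), and SBH2 at −0.00 ± 0.05 (adjusted p = 0.98). SSS1, with 9.57, 9.39 and 9.19 in hac1∆(hsf1), against 9.74, 9.76 and 9.45 in hac1∆, narrowly missed the threshold (−0.27 ± 0.11, adjusted p = 0.0508). Same-numbered arrays of these strains had deviations correlated at 0.152 to 0.502, though hac1∆(hsf1) replicate 2 matched hac1∆ replicate 3 about as well (0.156). With the replicate number as a block SSS1 was called (−0.27, limma adjusted p = 0.0448), which gave 6 genes lower in all. It passed under 8 of 19 other settings in total, one of them without WT replicate 2 (adjusted p = 0.0226), with 6 genes lower again.

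SSH1 fell, but its arrays overlapped: 9.45, 9.62 and 9.28 in hac1∆(hsf1), against 9.59, 9.66 and 9.72 in hac1∆ (−0.20 ± 0.07, limma adjusted p = 0.0277). The call ended without hac1∆(hsf1) replicate 3 (−0.12) or replicate 1 (−0.20), without hac1∆ replicate 2 (−0.20) or 3 (−0.17), and when only hac1∆(hsf1) and hac1∆ entered the model (−0.20).

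The strains named with hsf1 were then compared with each other, as hac1∆(hsf1) minus WT(hsf1). They differed in HSF1 and URA3 as well as in HAC1. HSF1 was higher in hac1∆(hsf1) (2.15 ± 0.30, limma adjusted p = 2.12e-05), and URA3 was lower (−1.31 ± 0.07, adjusted p = 1.89e-09). Their part in the values below was not tested. Of the 9 genes 8 fell and none rose, where 35.8% of all genes were called lower and 41.7% higher. The median was −0.61 for the 9 genes and 0.04 for all genes. SEC66, with 7.81, 7.66 and 7.70 in hac1∆(hsf1), against 9.21, 9.22 and 9.31 in WT(hsf1), fell 2.88-fold (−1.53 ± 0.08, limma adjusted p = 2.05e-09). SEC63 fell 2.49-fold (−1.32 ± 0.09, adjusted p = 1.93e-08) and SEC62 fell 2.43-fold (−1.28 ± 0.06, adjusted p = 1.47e-09). SEC72 fell less, by 1.53-fold (−0.61 ± 0.06, adjusted p = 1.06e-06).

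SEC61 changed by −0.69 ± 0.06 in this comparison, SSS1 by −0.56 ± 0.11 and SBH1 by −0.40 ± 0.05, all called and all without overlap of the arrays. SSH1 fell too, with 9.45, 9.62 and 9.28 in hac1∆(hsf1), against 9.94, 9.98 and 9.91 in WT(hsf1) (−0.49 ± 0.07, limma adjusted p = 3.18e-05). This sign is opposite to its change in hac1∆ minus WT. SBH2 was again not called (−0.07 ± 0.05, 95% interval −0.18 to 0.05).

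Set directly against WT, hac1∆(hsf1) had 7 of the 9 genes lower and none higher, where 28.1% of all genes were called lower and 29.0% higher. SEC62 fell 2.69-fold (−1.43 ± 0.06, limma adjusted p = 1.27e-08), and only 24 of all genes had a lower value. SEC66 fell 2.37-fold (−1.25 ± 0.08), SEC63 fell 2.26-fold (−1.17 ± 0.09) and SEC72 fell 1.91-fold (−0.93 ± 0.06), with no overlap of arrays for any of them.

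The Sec61 complex fell by nearly equal amounts here, SBH1 by −0.68 ± 0.05, SSS1 by −0.56 ± 0.11 and SEC61 by −0.55 ± 0.06. SSH1 (0.09 ± 0.07, limma adjusted p = 0.299) and SBH2 (−0.06 ± 0.05, adjusted p = 0.372) were not called. KAR2, for comparison, changed by −0.56 ± 0.06 (adjusted p = 1.74e-05). SSH1 was called higher, at 0.17, without hac1∆(hsf1) replicate 3.

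Whether the strains named with hsf1 differed from their counterparts alike in cells with and without HAC1 was tested by the interaction, the difference hac1∆(hsf1) minus hac1∆ less the difference WT(hsf1) minus WT. Of the 9 genes 4 were called lower and 1 higher, where 34.0% of all genes were called lower and 35.7% higher. SEC66 had the largest value, −0.99 ± 0.11 (limma adjusted p = 4.91e-06), since it changed by −0.71 in hac1∆ cells and by 0.28 in WT cells. SSH1 followed at −0.78 ± 0.10 (adjusted p = 1.49e-05), with −0.20 in hac1∆ cells and 0.58 in WT cells.

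SEC63 had an interaction of −0.68 ± 0.12 (limma adjusted p = 0.000283) and SEC62 of −0.27 ± 0.09 (adjusted p = 0.0184). The call of SEC62 ended without WT(hsf1) replicate 3, at −0.23. SBH1 was the gene called higher, at 0.22 ± 0.08 (adjusted p = 0.0175), and was not called with quantile normalization, at 0.16. SEC72, alone in its complex, was not called: its falls of −0.31 in hac1∆ cells and −0.32 in WT cells gave an interaction of 0.01 ± 0.09 (adjusted p = 0.91), with a 95% interval of −0.18 to 0.20. SEC61 (−0.18 ± 0.08, adjusted p = 0.0567), SSS1 (−0.27 ± 0.15, adjusted p = 0.131) and SBH2 (−0.01 ± 0.07, adjusted p = 0.916) were not called. SEC61 was called under 3 of 18 other settings (such as −0.22, adjusted p = 0.0381, without WT replicate 1) and SSS1 under 3 of 18 (such as −0.37, adjusted p = 0.0407, without hac1∆ replicate 3).

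The levels of each gene can be ordered over the strains. SEC62 and SEC72 were lowest in hac1∆(hsf1), then hac1∆, WT(hsf1) and WT. For SEC72 each step lay beyond the spread of the arrays, while for SEC62 the WT(hsf1) and WT arrays overlapped. SEC63 and SEC66 were lowest in hac1∆(hsf1), then hac1∆, WT and WT(hsf1). The WT and WT(hsf1) arrays of SEC63 overlapped, and those of SEC66 did not. SEC61 was lower in hac1∆(hsf1) and hac1∆, whose arrays overlapped, then came WT and WT(hsf1), without overlap. SBH1 was also lower in hac1∆(hsf1) and hac1∆, with overlap, followed by WT(hsf1) and WT without it. For SSS1 each strain overlapped its neighbour in the order hac1∆(hsf1), hac1∆, WT and WT(hsf1). SSH1 was lowest in WT, followed by hac1∆(hsf1), hac1∆ and WT(hsf1), with overlap between neighbours except in the last step.

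Because signals of different probe sets cannot be set against each other as levels, the paralogs were compared through the difference of their log2 signals on the same array, which shows whether they changed unequally between strains. SEC61 minus SSH1 was 0.44, 0.39 and 0.59 in hac1∆(hsf1), 0.31, 0.32 and 0.32 in hac1∆, 0.67, 0.67 and 0.67 in WT(hsf1) and 1.18, 0.99 and 1.17 in WT. The strains did not overlap, and the difference varied between them more than within them (exact permutation test over 369600 assignments of arrays, p = 6.49e-05, the smallest value this design can give). The shift was −0.80 in hac1∆ and −0.44 in WT(hsf1), each relative to WT.

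SBH1 minus SBH2 was −0.47, −0.69 and −0.47 in hac1∆(hsf1), −0.48, −0.42 and −0.56 in hac1∆, −0.25, −0.18 and −0.19 in WT(hsf1) and 0.19, 0.02 and 0.04 in WT. The arrays of hac1∆(hsf1) and hac1∆ overlapped each other and lay below those of WT(hsf1) and WT. The exact permutation test, which asks only whether the difference varied by strain, gave p = 0.000455. The shift was −0.57 in hac1∆ and −0.29 in WT(hsf1), each relative to WT. In hac1∆ minus WT the first shift combined the fall of SEC61 (−0.50) with the rise of SSH1 (0.29), while in the second SBH1 fell (−0.63) and SBH2 was not called (−0.06).

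Within the Sec63 complex the membrane anchor and its cytosolic partner also moved unequally, a pair described with no test because it was singled out after its values were seen. SEC66 minus SEC72 averaged −1.22 ± 0.09 in hac1∆(hsf1), −0.82 ± 0.10 in hac1∆, −0.31 ± 0.09 in WT(hsf1) and −0.91 ± 0.10 in WT (SD, n = 3 each). It was thus lowest in hac1∆(hsf1), highest in WT(hsf1), and overlapping in hac1∆ and WT. KAR2 minus SEC63, the Hsp70 and its J-domain partner, was chosen in the same way and averaged 3.52 ± 0.129 in hac1∆(hsf1), 1.95 ± 0.037 in hac1∆, 2.49 ± 0.060 in WT(hsf1) and 2.90 ± 0.131 in WT (SD, n = 3 each). In hac1∆(hsf1) this difference was above that of every WT array, and in hac1∆ it was below that of every array of the other strains.

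**Figure D3:**
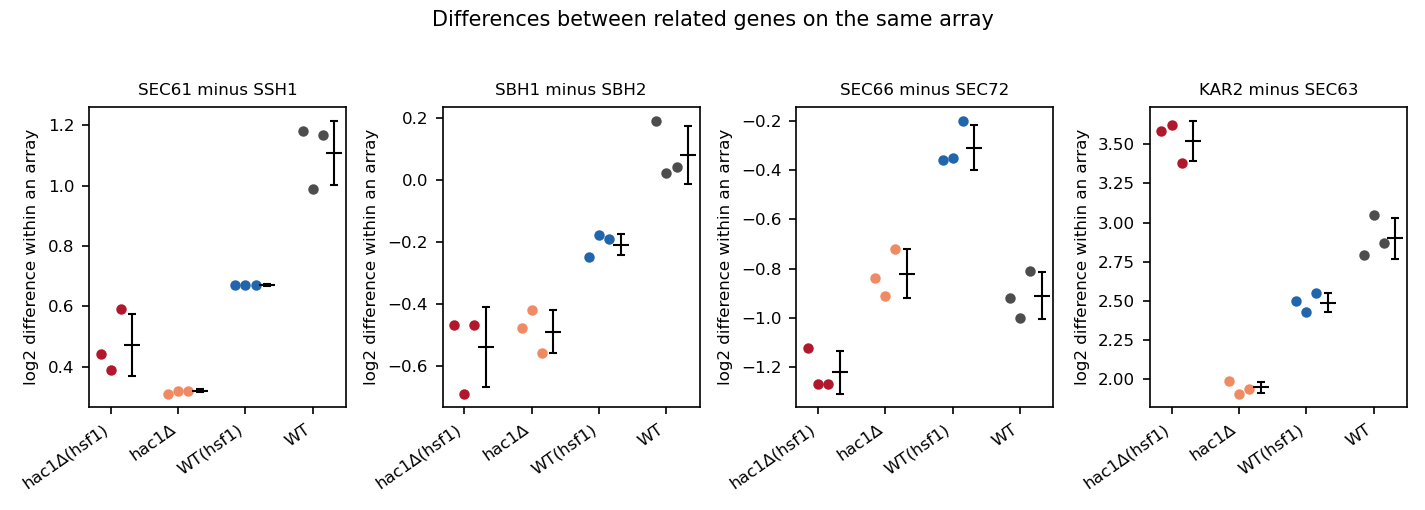
Difference of the log2 signals of related genes on the same array (vertical axis) by strain (horizontal axis); points are arrays and the bar is the mean ± SD (n = 3). SEC61 minus SSH1 does not overlap between strains, SBH1 minus SBH2 is lowest in the strains without HAC1, and KAR2 minus SEC63 is highest in hac1∆(hsf1) and lowest in hac1∆.

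Other genes of protein entry into the ER were counted beside these complexes. In hac1∆ minus WT the ER lumen Hsp70 system fell in all 5 genes measured (median −1.57), with SIL1, a nucleotide exchange factor of Kar2, at −2.39 ± 0.09. KAR2 itself changed by −1.60 ± 0.06, a larger fall than that of any of the 9 genes. None of the 8 genes of SRP and its receptor fell and 3 rose, a share not far above the 28.4% of all genes called higher. Their median was 0.13, and 0.05 without WT replicate 2. The gene of the receptor's alpha subunit rose most, at 0.36 ± 0.06. Signal peptidase, which removes signal sequences, fell in 2 of 4 genes (median −0.24), most in SPC2 (−0.42 ± 0.10), and in 3 of 4 without WT replicate 2.

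The remaining entry lists were counted in the same way in hac1∆ minus WT. The GET pathway, which inserts tail-anchored proteins, had 2 of 6 genes lower (median −0.03), near the 22.3% of all genes, most GET3 at −0.24 ± 0.06. The ER membrane complex, an insertase, had 1 higher and 2 lower of 7 (median 0.08), with EMC1 at 0.54 ± 0.07 and EMC6 at −0.38 ± 0.06. Of the SND targeting pathway SND2 and SND3 were measured and SND3 fell (−0.27 ± 0.06). Among the translocon-associated proteins YSY6, YET1 and YET3, YET3 rose (0.28 ± 0.06) and YSY6 fell (−0.23 ± 0.07), a call that ended under 4 of 19 other settings. The cytosolic Hsp70 system, which keeps finished proteins ready for entry, fell in 3 of 5 genes (median −0.20). SSA3 fell most (−1.52 ± 0.20, and −1.19 without WT replicate 2).

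In hac1∆(hsf1) minus hac1∆, where 26.5% of all genes were called higher and 30.7% lower, the SRP list fell in 7 of 8 genes. Its median was −0.36, with SRP72 lowest (−0.67 ± 0.07). All 4 signal peptidase genes fell (median −0.28), most in SPC3 (−0.56 ± 0.08). The ER membrane complex fell in 6 of 7 genes and rose in EMC6 (median −0.25, EMC6 at 0.31 ± 0.06 and EMC1 lowest at −0.38 ± 0.07). The fall of EMC5 (−0.21 ± 0.08, limma adjusted p = 0.0445) lost its call under 9 of 19 other settings; EMC5 and SSA4 are named after their values were seen. SND2 fell (−0.70 ± 0.05) and SND3 rose (0.18 ± 0.06), the last call ending under 4 of 19 other settings. Translocon-associated proteins had no called gene.

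Of the cytosolic Hsp70 system 4 of 5 genes rose in that comparison (median 0.48), most SSA3 (2.82 ± 0.20) and SSA4 (2.05 ± 0.10), both inducible Hsp70s. Of the ER lumen system KAR2 alone was called, and the other 4 genes had changes of −0.16 to 0.14; without WT replicate 2 JEM1 (0.14) and LHS1 (−0.16) were called as well, 2 genes named after their values were seen. The GET pathway had 2 higher and 2 lower of 6, near the 26.5% and 30.7% of all genes. SGT2, a co-chaperone, was highest (0.64 ± 0.06) and GET4 lowest (−0.63 ± 0.12).

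**Figure D4:**
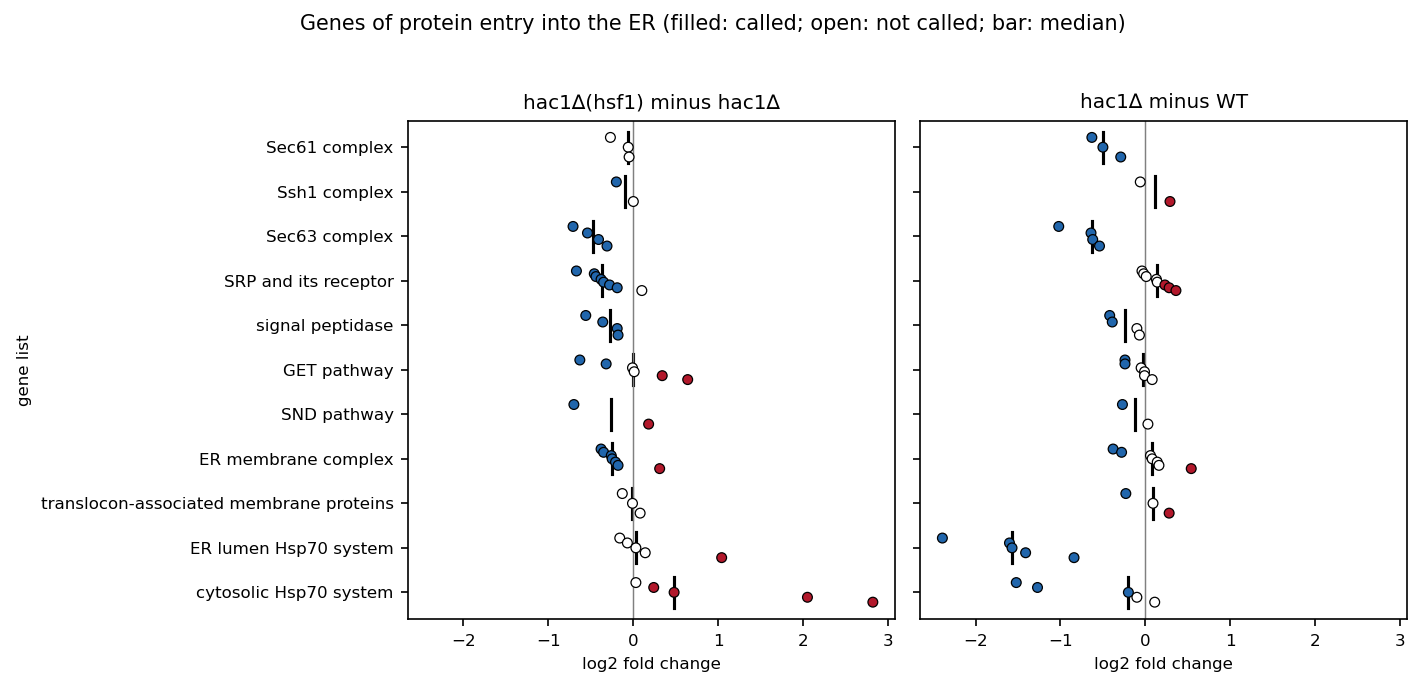
Log2 fold changes (horizontal axis) of genes of protein entry into the ER by list (vertical axis) in hac1∆(hsf1) minus hac1∆ (left) and hac1∆ minus WT (right); points are genes, blue called lower, red called higher, open not called, and the bar is the list median. The Sec63 complex lies below 0 in both panels, while KAR2, the rightmost gene of the ER lumen list at left, is at 1.04 there.

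In WT(hsf1) minus WT the SRP list rose in 7 of 8 genes (median 0.28), most in the gene of the receptor's beta subunit, a membrane protein (0.56 ± 0.07). Over all genes 32.3% were called higher and 33.8% lower. The interaction was called lower in 7 of 8 genes of the SRP list (median −0.70) and in 3 of 4 of the Sec63 complex (median −0.47). Over all genes 34.0% were called lower and 35.7% higher in the interaction. There the ER lumen Hsp70 system had 3 of 5 genes higher and 0 lower (median 0.56), and the cytosolic Hsp70 system 4 higher and 1 lower (median 0.68). Without WT replicate 2 the interaction was called higher in 4 genes of the ER lumen system (median 0.75). The ER membrane complex rose in 6 of 7 genes in WT(hsf1), most in SOP4 (0.54 ± 0.07), and in 4 without WT replicate 2. Other lists had more falls than rises in WT(hsf1) minus WT. The ER lumen Hsp70 system had 3 of 5 genes lower and 0 higher (median −0.28), and the cytosolic Hsp70 system 3 lower and 1 higher (median −0.43). Without WT replicate 2 the ER lumen system had 4 genes lower (median −0.47). The GET pathway had 3 of 6 lower and 1 higher (median −0.22), and the translocon-associated proteins 2 of 3 lower and 0 higher (median −0.38).

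As a description of likeness over the 12 arrays, the genes above background were ranked by their Pearson correlation with SEC61 and with SSH1. The points fall into 4 strains and share arrays, so the values carry no test. Most like SEC61 were PMT2 (0.988), a protein O-mannosyltransferase, MEP3 (0.986), an ammonium permease, GAP1 (0.982), the general amino acid permease, AAT1 (0.980), an aspartate aminotransferase, and HAC1 (0.977). Most like SSH1 were MSS51 (0.973), YGR054W (0.972), EFT2 (0.961), which encodes translation elongation factor 2, NCP1 (0.953), a cytochrome P450 reductase, and STE20 (0.953), a protein kinase.

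Among the complexes, SEC63 ranked 54th in likeness to SEC61 (0.944), SEC62 ranked 87th (0.932) and SEC66 ranked 154th (0.903) of 5235 genes, while SEC72 ranked 392nd (0.816). The partners of SEC61 in its own complex, SBH1 (0.829) and SSS1 (0.813), ranked 352nd and 403rd. SSH1 correlated with SEC61 at 0.396.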

How the data were processed

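RNA of 12 cultures was hybridised to Affymetrix yeast arrays with a 3' in vitro transcription kit, per the labels' protocols. The deposited log2 values, 1 signal for each probe set on each array, were made with PLIER, per the submitters' processing notes. Background correction, normalization and log base are not stated there; log2 was read from the values (4.84 to 12.75). A missing transcript reads near background rather than 0, which understates fold changes of dim genes. The number of arrays limits the precision.

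Probe sets were named from the platform annotation, updated through the RefSeq table (R64). Of 10928 probe sets 5498 belonged to S. cerevisiae, giving 5449 genes; 47 genes had several, and the highest mean was kept. SND1 was not matched. Background, 5.49, is the 95th percentile of the means of 1746 probe sets whose listed gene is not in that table. No gene was removed.

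The 4 strain means were estimated together from the 12 arrays with limma 3.58.1 (R 4.3.3), tested on simulated data, with p-values adjusted over the genes of a comparison (threshold 0.05). The labels call the replicates biological, and no arrays were identical. In hac1∆(hsf1) and hac1∆ the 3 same-numbered pairs of arrays had deviations from their strain means that correlated at 0.502, 0.152 and 0.342. This comes from the data, not from the labels. The main fit did not use the replicate numbers, which entered only as a replicate block over all 4 strains, an alternative setting. Paralog differences had an exact permutation test. Named genes are the 9 genes, HAC1, HSF1, KAR2, URA3, the called extremes of lists of ER entry genes, and the 5 genes most like SEC61 or SSH1. The genes and lists were chosen with earlier results of these data known. Alternatives were quantile normalization, an intensity trend, array weights, only the strains compared, a replicate block, a filter on dim genes, the mean of probe sets, and leaving out each array.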

Additional observations from a re-analysis of the deposited data

Results flagged for a closer look

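For 5 of the 9 genes the difference of the strain named with hsf1 from its counterpart was unlike in hac1∆ and WT cells by the interaction term of the limma fit. Over all genes 34.0% were called lower and 35.7% higher in the interaction, so such a call does not set these genes apart. The interaction was −0.99 for SEC66, −0.78 for SSH1, −0.68 for SEC63 and −0.27 for SEC62, and 0.22 for SBH1, on the log2 scale. For SEC66 and SSH1 the differences had opposite signs and both were called (−0.71 in hac1∆ and 0.28 in WT cells for SEC66, −0.20 and 0.58 for SSH1). HSF1 itself stood at 10.67 in hac1∆(hsf1), against 7.83 in hac1∆, and at 8.52 in WT(hsf1), against 8.08, 9.61 and 8.11 on the WT arrays; its part in these differences was not tested. Groups of 3 arrays are too small for a search for single outlying arrays.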

How the results depend on the processing

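Of 54 values, for 9 genes in 6 comparisons, 38 were called, and 33 of these kept their call and direction under every other setting tried. No called change of the 9 genes reversed its sign. Some values that were not called and lay near 0 did, such as SEC61 in hac1∆(hsf1) minus hac1∆ (−0.05, and 0.01 with quantile normalization). Both exact permutation tests of paralogs passed on leaving out any array and with quantile normalization (largest p = 0.000714). In hac1∆(hsf1) minus WT the count of the 9 genes called higher was 1 rather than 0 without hac1∆(hsf1) replicate 3 (range 0 to 1 on leaving out an array), the gene being SSH1. In the interaction it was 0 rather than 1 with quantile normalization. Counts over all genes stayed within 1.5 times of their value under all settings. HSF1 in WT(hsf1) minus WT, not called at −0.08, was called with the opposite sign with array weights (0.37) and without WT replicate 2 (0.43; range −0.34 to 0.43 on leaving out an array). KAR2 in the same comparison lost its call with quantile normalization (−0.08, limma adjusted p = 0.357). Quantile normalization left the median of all genes at −0.02 to 0.04. The causes of these changes were not tested.

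Over all strains 8 of 18 same-numbered pairs of arrays had deviations correlated over 0.1 (−0.246 to 0.502), and 6 of 12 arrays matched their own number best. Between hac1∆ and WT(hsf1) the same-numbered pairs stood at 0.136, 0.1 and 0.088, above all pairs of unlike number (highest 0.052). In turn, hac1∆(hsf1) replicate 2 matched hac1∆ replicate 3 (0.156) about as well as hac1∆ replicate 2 (0.152). With the replicate number as a block, the count of genes called was 2844 in hac1∆ minus WT, against 2764 without the block, and in WT(hsf1) minus WT SEC61 lost its call (0.14, adjusted p = 0.0676) while SEC62 was called lower (−0.14, adjusted p = 0.0383), giving 3 lower and 2 higher. Beside SSS1 in hac1∆(hsf1) minus hac1∆, the block changed no other call of the 9 genes. The floor of the deposited values limits only dim genes; none of the 9 lies near it.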
